A study of Mus musculus with 6 samples.

Results

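Genes for cholesterol synthesis, for its regulation, transport and storage, and for cholesterol efflux driven by the liver X receptors (LXR) were followed in mouse osteoblast cultures given verapamil. The members were the rows of the deposited count table whose gene symbol was 1 of 32 listed names, and all 32 were found among 17491 genes. They comprise 18 synthesis enzymes, 5 genes of the sterol regulatory element-binding protein (SREBP) system, 2 genes of sterol transport and storage, and 7 genes of the LXR and efflux arm. The cells were wild-type bone marrow mesenchymal stem cells from tibiae and femora of mice, driven towards osteoblasts until day 7 by ascorbic acid, β-glycerophosphate and dexamethasone. By label, 3 samples had verapamil, which blocks L-type voltage-gated calcium channels, and 3 control samples had the same medium. The dose of verapamil and length of exposure are not given in the labels, nor is the sex, age or number of the mice. Whether replicates are separate animals or cultures is likewise not stated, and each p therefore reflects only the spread between libraries, which may be technical. The design text states the replicate numbers as 3 pairs without tying them to animals. The main test did not use these pairs, and an alternative fit did.

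Cells make cholesterol from acetyl-CoA through mevalonate, farnesyl pyrophosphate, squalene and lanosterol. When sterols in the endoplasmic reticulum are low, the escort protein Scap carries SREBP to the Golgi, where it is cut and freed to switch on the synthesis genes, and Insig proteins hold Scap back when sterols are high. Oxysterols, which build up with cholesterol, activate LXR, which switches on the genes that export it. The mevalonate pathway matters in bone because farnesyl pyrophosphate synthase is the target of the nitrogen-containing bisphosphonates used against bone loss.

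Estimated counts summed to between 18227793 and 21705960 per library. Levels are given as CPM, the usual depth-scaled count, with TMM scaling, which evens out library composition, and differences as log2 fold changes, verapamil over control, each with a standard error (SE). Tests used the quasi-likelihood method of edgeR, p was adjusted by Benjamini and Hochberg's procedure over 13366 genes, and the threshold for a call was 0.05. Osteoblast markers were detected in every library, at a summed 27344, 27279 and 27398 CPM in verapamil libraries, against 47385, 57292 and 44943 CPM in control libraries. Of the 12 listed, 11 fell and 1, Spp1, did not pass (0.25, edgeR adjusted p = 0.217), with a median log2 fold change of -1.12. That is 91.7% called, against 31.7% of all genes tested. The part of this shift in osteoblast markers in the members' changes was not tested. Control libraries differed in their hypoxia response genes, with replicate 2 highest and replicate 3 lowest. The 12 analysed of 14 listed summed to 1807, 1545 and 1734 CPM in verapamil replicates 1, 2 and 3, and to 3951, 6007 and 2387 CPM in control replicates 1, 2 and 3. Control replicate 2 had the lowest of the 3 control values in 20 of 32 members (62.5%), and in 39.4% of all genes tested. Values without that library are given where leaving it out changed a call, and for several other genes whose fold change it moved.

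Promoter sequences from RefSeq (GRCm38.p6) are shown for 4 members: Hmgcs1, Mvk, Tm7sf2 and Abca1. Hmgcs1 is the synthesis enzyme that fell, and Tm7sf2 is the synthesis enzyme with the largest rise. Mvk, which acts later in the pathway than Hmgcs1, has 5 CCAAT boxes, and Abca1 is an LXR-driven exporter. Each run is the 250 bases before an annotated transcript start, 5′ to 3′ on the gene's strand. In the first 3, capitals mark a CCAAT box, the letters CCAAT or their reverse complement ATTGG, which NF-Y binds beside SREBP, and in Hmgcs1 also a sterol regulatory element searched as TCACNCCAC.
Hmgcs1, chr13:119690101-119690350, plus strand: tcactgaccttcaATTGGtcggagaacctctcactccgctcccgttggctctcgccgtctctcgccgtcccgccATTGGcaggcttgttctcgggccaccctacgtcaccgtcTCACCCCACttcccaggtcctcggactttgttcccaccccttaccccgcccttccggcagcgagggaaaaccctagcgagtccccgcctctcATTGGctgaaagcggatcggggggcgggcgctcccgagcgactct
Mvk, chr5:114444019-114444268, plus strand: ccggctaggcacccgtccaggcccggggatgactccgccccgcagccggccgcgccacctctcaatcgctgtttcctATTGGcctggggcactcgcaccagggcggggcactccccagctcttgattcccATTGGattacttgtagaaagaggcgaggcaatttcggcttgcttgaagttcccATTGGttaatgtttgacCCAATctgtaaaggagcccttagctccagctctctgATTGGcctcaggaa
Tm7sf2, chr19:6067851-6068100, minus strand: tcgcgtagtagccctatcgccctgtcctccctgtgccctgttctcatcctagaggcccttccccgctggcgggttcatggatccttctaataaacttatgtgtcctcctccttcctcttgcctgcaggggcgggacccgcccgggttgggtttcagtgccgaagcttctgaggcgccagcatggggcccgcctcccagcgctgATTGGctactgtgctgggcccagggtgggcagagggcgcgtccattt
Abca1, chr4:53159896-53160145, minus strand: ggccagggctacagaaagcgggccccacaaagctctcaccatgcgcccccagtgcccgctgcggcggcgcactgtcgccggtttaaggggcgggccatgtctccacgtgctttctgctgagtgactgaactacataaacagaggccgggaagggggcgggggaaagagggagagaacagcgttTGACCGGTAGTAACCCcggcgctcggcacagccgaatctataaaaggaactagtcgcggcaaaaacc

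In Abca1 the capitals mark the closest match to the LXR direct repeat, known as DR4, searched on both strands as AGGTCA repeated after a gap of 4 bases. It lies 67 to 52 bases before the start and differs from the search letters at 3 of the fixed positions, a tolerance chosen after a search with up to 2 mismatches had found none there. At 3 mismatches, 20.9% of all genes with a promoter in the table had a match, and so did 8 of 27 members. Those were Abca1, Dhcr7, Hmgcs1, Insig1, Insig2, Pmvk, Srebf1 and Tm7sf2, so only Abca1 came from the LXR and efflux arm. The matches in Hmgcs1 and Tm7sf2 are not marked above. With up to 2 mismatches, the only member with a match was Dhcr7, a synthesis enzyme, against 2.96% of all genes. Promoters were found for 27 of the 32 members, and Fdps, Fdft1, Sqle, Stard4 and Abcg1 had none in the table. A CCAAT box stood in 14 of 15 synthesis enzymes, 4 of 5 genes of the SREBP system and 2 of 6 genes of the LXR and efflux arm, against 37.5% of all genes. Mvk had 5, Hmgcs1 had 3 and Tm7sf2 had 1. The element TCACNCCAC was found in Hmgcs1 alone among the 27, against 1.22% of all genes. Of the promoters shown, only that of Hmgcs1 had a start that was not found in a GENCODE transcript. Letters of this kind are a description of the window, and no binding was measured.

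With verapamil, RNA for cholesterol export was higher and RNA for cholesterol synthesis was mixed. Of the 32 members, all of which were tested, 16 rose, 2 fell and 14 did not pass. Among all genes tested, 15.4% were called higher, 16.3% lower and 31.7% either way. The median log2 fold change was 0.24 over the members and 0.01 over all genes tested. In the LXR and efflux arm 5 of 7 rose and none fell, with a median of 0.41; all 7 fold changes were above 0 on the log2 scale, and DESeq2 also called none lower. Among synthesis enzymes 9 of 18 rose and 1 fell, with a median of 0.26. Both groups of genes therefore had medians above that of all genes, and the synthesis median lay 0.15 below that of the LXR and efflux arm (synthesis minus efflux -0.15, and -0.24 without control replicate 3). Per library, the mean log2 CPM of the LXR and efflux arm exceeded that of the synthesis enzymes by 1.21, 1.30 and 1.25 with verapamil, against 0.97, 1.14 and 1.05 in control libraries. The groups did not overlap on that difference. It is given without a test, since the members were chosen with results known.

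**Figure D1:**
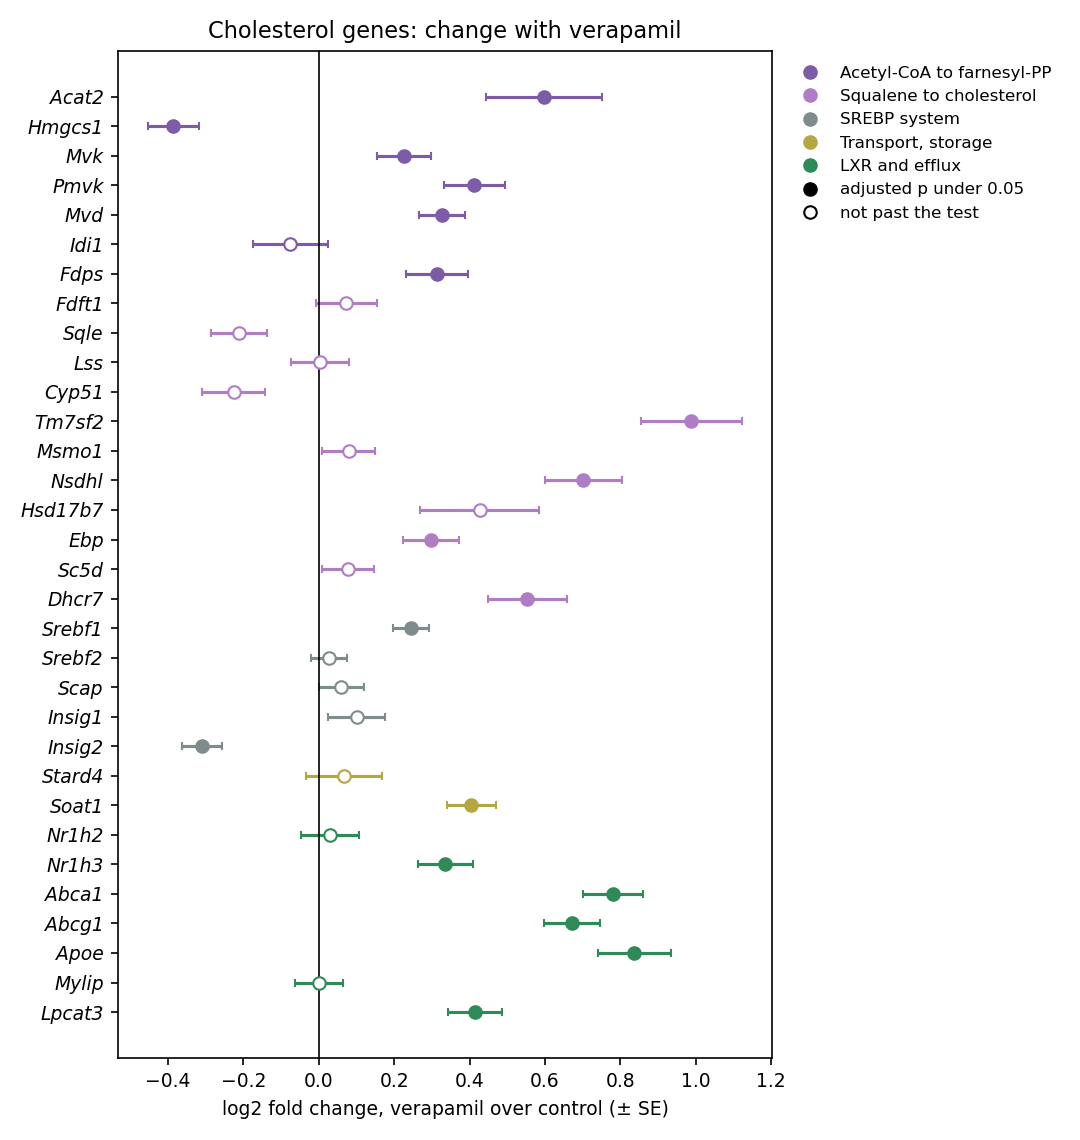
Log2 fold change of verapamil over control for the 32 members in pathway order, with SE (n = 3 libraries per group). Filled points passed the test at an adjusted p under 0.05; the LXR and efflux genes lie at or right of 0, while synthesis enzymes run from -0.39 for Hmgcs1 to 0.99 for Tm7sf2.

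The exporters were the members of the LXR and efflux arm that moved most, along with Apoe. Abca1, which loads cholesterol onto apolipoprotein A-I at the cell surface (Entrez 11303, chromosome 4, 53030789 to 53159988 in GRCm38), was at 221, 258 and 229.5 CPM with verapamil, against 146, 127 and 140.0 CPM in control libraries. Every verapamil library lay above every control library. It rose by 0.78 ± 0.08 SE on the log2 scale (edgeR adjusted p = 4.91e-04), a 1.72-fold difference.

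Abcg1, which exports cholesterol to high-density lipoprotein particles (chromosome 17, 31057694 to 31117984), was at 66.6, 77.0 and 71.4 CPM with verapamil, against 46.0, 41.9 and 47.1 CPM in control libraries. The groups were apart here too. Abcg1 rose by 0.67 ± 0.07 SE (edgeR adjusted p = 6.25e-04).

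Apoe, the lipoprotein component that macrophages secrete and that carries exported cholesterol (chromosome 7, 19696244 to 19701310), was at 7680.2, 8025 and 7481 CPM with verapamil, against 4043, 4655 and 4282 CPM in control libraries. It took 0.793%, 0.822% and 0.769% of all estimated counts with verapamil, against 0.397%, 0.434% and 0.429% in control libraries. By count it was the gene of rank 4 or 5 in verapamil libraries and of rank 14 in each control library. The change was 0.84 ± 0.10 SE (edgeR adjusted p = 7.47e-04), or 1.79-fold. Per kilobase of transcript, the level of Apoe was 5489 CPM per kb with verapamil and 3073 CPM per kb in control libraries, the highest among the members in both groups.

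Lpcat3, an LXR target whose enzyme puts polyunsaturated fatty acids into membrane phospholipids, was at 76.9, 74.9 and 77.0 CPM with verapamil, against 59.1, 51.5 and 60.9 CPM in control libraries (log2 fold change 0.41 ± 0.07 SE, edgeR adjusted p = 0.00389). Its annotation overlaps that of Emg1 by 347 bases, and Emg1 was called neither way (log2 fold change 0.02).

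The receptors themselves differed from each other. Nr1h3, encoding LXRα, the form enriched in macrophages, liver and fat, was at 22.5, 25.3 and 24.4 CPM with verapamil, against 19.6, 18.3 and 19.3 CPM in control libraries. It rose by 0.34 ± 0.07 SE (edgeR adjusted p = 0.0106), though without verapamil replicate 2 the adjusted p was 0.0584. Nr1h2, encoding the widely expressed LXRβ, was at 58.4, 52.4 and 52.2 CPM with verapamil, against 51.2, 58.0 and 50.5 CPM in control libraries. Its groups overlapped, and its log2 fold change was 0.03 ± 0.08 SE (edgeR adjusted p = 0.797). Per kilobase, Nr1h2 had 27.2 CPM per kb with verapamil and 26.6 in control libraries, and Nr1h3 had 12.3 and 9.75 CPM per kb.

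Mylip, an LXR target whose product marks lipoprotein receptors for degradation, did not follow the exporters. It was at 45.1, 45.0 and 46.6 CPM with verapamil, against 45.6, 42.7 and 48.2 CPM in control libraries, with every verapamil value inside the control range. The log2 fold change was 0.00 ± 0.06 SE (edgeR adjusted p = 0.989).

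**Figure D2:**
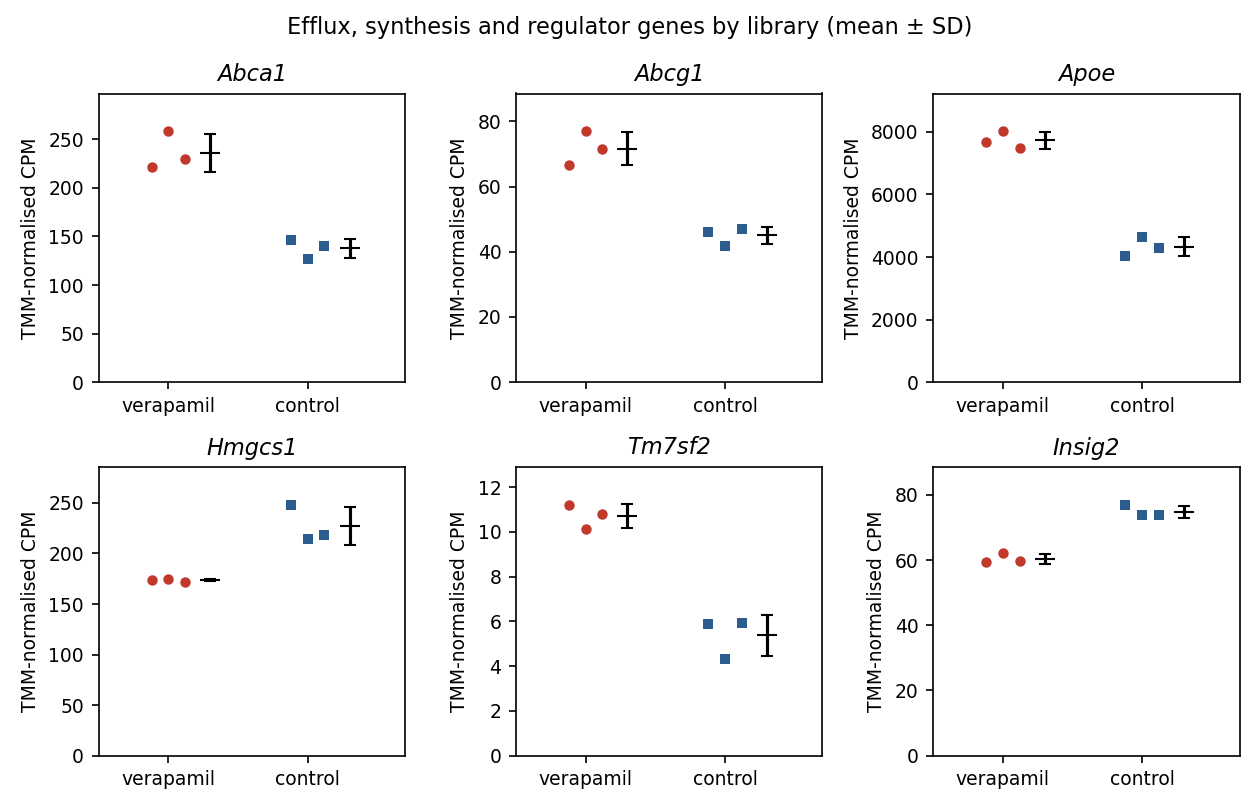
TMM-normalised CPM of 6 members in each of 3 verapamil and 3 control libraries, with mean and SD beside the points. Abca1, Abcg1, Apoe and Tm7sf2 lie higher in every verapamil library, and Hmgcs1 and Insig2 lie lower in every verapamil library.

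Macrophage markers moved with the exporters in these libraries. Of 18 listed, 13 rose, 1 fell and 4 did not pass, 77.8% called against 31.7% of all genes. The median log2 fold change was 0.47. They summed to 19090.1, 20383 and 18146 CPM with verapamil, against 11651, 10268 and 12747 CPM in control libraries, and no listed marker was at 0 in all libraries. The lysozyme Lyz2 was the marker with the highest level, at 11155, 12101 and 10336 CPM with verapamil, against 5919, 4360 and 6329 CPM in control libraries. C1qb, a chain of complement C1q, averaged 1226 ± 41.0 CPM with verapamil and 889 ± 50.3 CPM in control libraries (SD, n = 3 each), a rise of 0.46 on the log2 scale (edgeR adjusted p = 0.00298). Mrc1, the mannose receptor, averaged 1274 ± 12.6 CPM with verapamil and 1276 ± 70.8 CPM in control libraries (SD, n = 3 each). Lyz2 rose by 1.02 on the log2 scale. Tyrobp rose by 0.88, Cd14 by 0.83, Cd68 by 0.74 and Ptprc by 0.67, all named after their values were seen. Abca1 rose by 0.78 and Abcg1 by 0.67. The other markers that rose did so by 0.36 to 0.64. The only marker that fell was Cx3cr1, the fractalkine receptor, named after its value was seen, at 0.585, 0.992 and 0.494 CPM with verapamil, against 3.90, 2.72 and 3.77 CPM in control libraries. In bulk RNA, a change in how many cells of a type there are and a change in RNA per cell cannot be told apart.

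Set against the summed macrophage markers, the difference in the exporters depended on whether Lyz2, the marker with the highest level, was counted. Per 1000 estimated counts of all 18 markers, Abca1 had 11.6, 12.7 and 12.6 counts with verapamil, against 12.5, 12.4 and 10.98 in control libraries, and the groups overlapped. With Lyz2 left out of the sum, Abca1 had 27.9, 31.2 and 29.4 counts with verapamil, against 25.5, 21.5 and 21.8 in control libraries, and the groups were apart. Abcg1 gave 3.73 ± 0.225 counts with verapamil and 3.91 ± 0.195 in control libraries over all markers (SD, n = 3 each). Without Lyz2 it gave 8.94 ± 0.482 and 7.48 ± 0.488. Apoe per 1000 marker counts was 403 ± 9.29 with verapamil and 379 ± 64.8 in control libraries, and without Lyz2 965 ± 6.11 with verapamil and 720.1 ± 61.7 in control libraries. The sum of all 18 markers was 1.66-fold higher with verapamil, and that of the 17 without Lyz2 was 1.33-fold higher. These ratios were chosen after the data were seen, and the part of macrophage number in the rise of the exporters was not tested.

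Adipocytes also express several of these genes. Of 10 adipocyte markers 6 were tested, of which 2 rose and 2 fell, 66.7% called against 31.7% of all genes. The sum of the 6 was 569, 607 and 605 CPM with verapamil, against 552, 492 and 562 CPM in control libraries. The adipokine genes Lep and Retn, the complement factor gene Cfd and the lipid droplet gene Cidec were at or near 0, with at most 10 estimated counts in any library. Another adipokine gene, Adipoq, was at 77.0, 99.4 and 79.5 CPM with verapamil, against 98.7, 73.4 and 95.4 CPM in control libraries. Its log2 fold change was -0.06 (edgeR adjusted p = 0.757). Pparg rose by 0.33. Plin1, which averaged 0.464 CPM with verapamil and 1.30 CPM in control libraries, fell by 1.46. The markers with the highest means were Cebpa (log2 fold change 0.36, edgeR adjusted p = 0.0626), the lipid droplet coat gene Plin4, which fell by 0.48, and the fatty acid carrier gene Fabp4, which rose by 0.59.

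**Figure D3:**
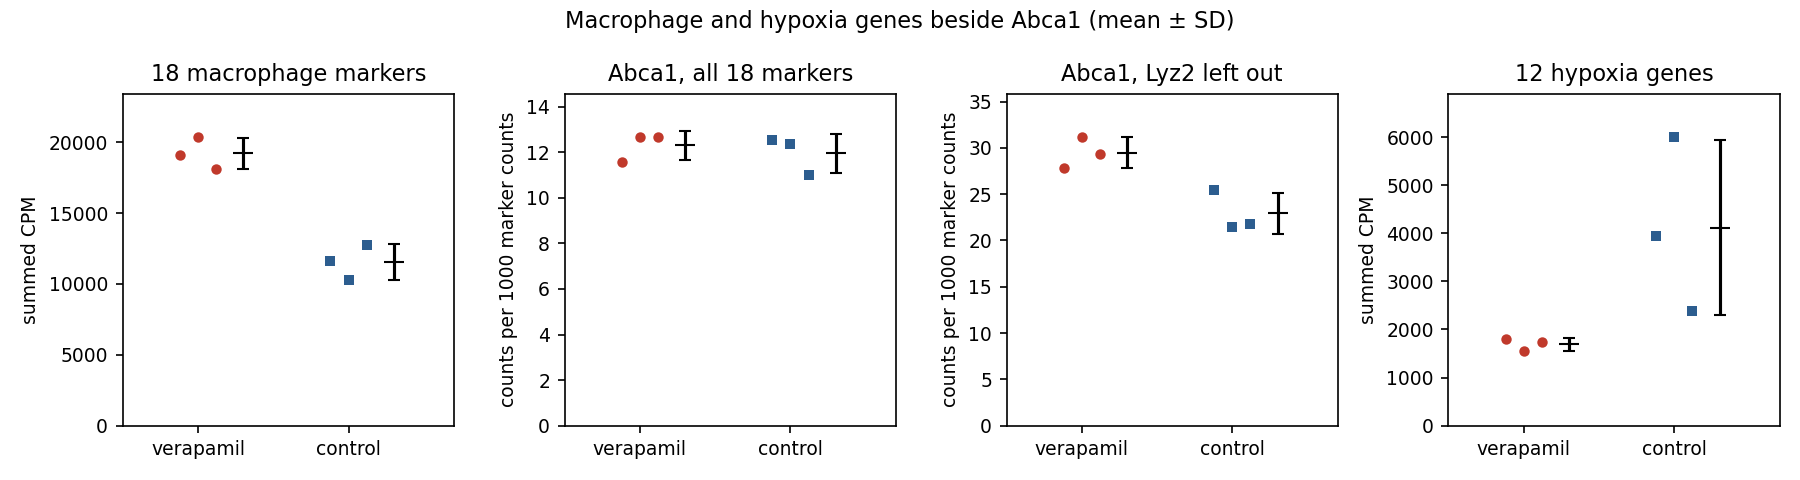
Left to right: summed CPM of 18 macrophage markers, Abca1 counts per 1000 counts of those markers, the same with Lyz2 left out of the markers, and summed CPM of 12 hypoxia response genes, in each verapamil and control library with mean and SD. Abca1 per marker count overlaps between groups with Lyz2 in the sum, at 10.98 to 12.7, and not without it.

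Of the 2 genes of sterol transport and storage, RNA of Soat1 rose and that of Stard4 did not pass. Soat1, which esterifies cholesterol for lipid droplets (chromosome 1, 156428108 to 156474328), was at 293, 294 and 273 CPM with verapamil, against 218, 203 and 228 CPM in control libraries. The groups did not overlap, and the log2 fold change was 0.40 ± 0.06 SE (edgeR adjusted p = 0.00292). Stard4, a SREBP target that moves cholesterol through the cytosol, was at 73.5, 72.3 and 67.4 CPM with verapamil, against 73.7, 56.7 and 72.8 CPM in control libraries (0.07 ± 0.10 SE, edgeR adjusted p = 0.644). Without control replicate 2 its log2 fold change was -0.05.

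Synthesis enzymes did not move as a block. Summed over all 18, they came to 1203, 1193 and 1190.0 CPM with verapamil, against 1245, 1058 and 1143 CPM in control libraries, so that the groups overlapped although 9 enzymes rose. Groups did not overlap for 13 of the 18 enzymes, 10 higher and 3 lower, against 49.6% of all genes either way, 25.2% higher and 24.4% lower. The number that rose was 5 without verapamil replicate 1, 5 without replicate 2 and 5 without replicate 3. Enzymes that kept their call without each library in turn were Hmgcs1, Pmvk, Mvd, Tm7sf2, Nsdhl and Dhcr7.

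At the head of the pathway the neighbouring steps went opposite ways. Acat2, the cytosolic thiolase that joins acetyl-CoA units (chromosome 17, 12943042 to 12960725), was at 56.99, 57.7 and 55.2 CPM with verapamil, against 39.1, 27.9 and 45.1 CPM in control libraries. It rose by 0.60 ± 0.15 SE (edgeR adjusted p = 0.0247). Its call was lost without control replicate 1 or any verapamil replicate (edgeR adjusted p = 0.0659 to 0.0813). The rise was 0.42 without control replicate 2.

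Hmgcs1, the HMG-CoA synthase that takes the next step (Entrez 208715, chromosome 13, 119690351 to 119708260), was at 174, 175 and 172 CPM with verapamil, against 248, 214 and 218 CPM in control libraries. All 3 verapamil values lay within 3 CPM of each other and below every control value. Hmgcs1 fell by 0.39 ± 0.07 SE on the log2 scale (edgeR adjusted p = 0.00433), and its call held in each of the 14 alternatives run. It was the only synthesis enzyme called lower. The promoter shown for it holds the letters searched as a sterol regulatory element, and the part of that element in its fall was not tested.

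The 3 steps that turn mevalonate into isopentenyl pyrophosphate were all higher. Mevalonate kinase, Mvk, was at 29.1, 25.5 and 27.1 CPM with verapamil, against 23.2, 23.7 and 23.0 CPM in control libraries (0.23 ± 0.07 SE, edgeR adjusted p = 0.0409). Its call was lost in 7 of the 14 alternatives. Phosphomevalonate kinase, Pmvk, was at 17.97, 17.7 and 19.6 CPM with verapamil, against 13.7, 13.4 and 14.4 CPM in control libraries (0.41 ± 0.08 SE, edgeR adjusted p = 0.00626). The decarboxylase Mvd was at 26.6, 26.7 and 26.3 CPM with verapamil, against 20.9, 21.4 and 21.1 CPM in control libraries (0.33 ± 0.06 SE, edgeR adjusted p = 0.00536). For each of these 3 genes the groups did not overlap.

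Idi1, the isomerase of the next step, was at 86.0, 87.6 and 91.2 CPM with verapamil, against 104, 77.8 and 97.6 CPM in control libraries. The verapamil values fell inside the control range, and the log2 fold change was -0.08 ± 0.10 SE (edgeR adjusted p = 0.597). Without control replicate 2 it was -0.19 and passed (edgeR adjusted p = 0.0157). Fdps, the farnesyl pyrophosphate synthase (chromosome 3, 89093588 to 89101967), was at 70.8, 69.2 and 71.6 CPM with verapamil, against 63.4, 56.4 and 50.5 CPM in control libraries. It rose by 0.31 ± 0.08 SE (edgeR adjusted p = 0.0217), a call lost without any of the verapamil replicates (edgeR adjusted p = 0.0676 to 0.0819).

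Around squalene and lanosterol 4 enzymes did not pass. Sqle, the squalene epoxidase and an oxygen-using step, was at 72.6, 70.1 and 70.9 CPM with verapamil, against 83.7, 89.5 and 74.1 CPM in control libraries (-0.21 ± 0.07 SE, edgeR adjusted p = 0.0581). Cyp51, which demethylates lanosterol, was at 105, 104 and 110.2 CPM with verapamil, against 139, 111 and 122 CPM in control libraries (-0.23 ± 0.08 SE, edgeR adjusted p = 0.0688). In both genes every verapamil library lay below every control library. Cyp51 passed without control replicate 2 (-0.31, edgeR adjusted p = 0.00377) and Sqle without control replicate 3 (-0.29, edgeR adjusted p = 0.00620).

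Squalene synthase, Fdft1, was at 59.8, 51.2 and 54.0 CPM with verapamil, against 56.2, 52.3 and 48.3 CPM in control libraries (0.07 ± 0.08 SE, edgeR adjusted p = 0.529). Its annotation overlaps by 774 bases that of Ctsb, a lysosomal protease gene at 8328 to 8965 CPM with verapamil and 5461 to 6244 CPM in control libraries, so its count is uncertain. Lanosterol synthase, Lss, averaged 41.8 ± 2.04 CPM with verapamil and 41.6 ± 3.58 CPM in control libraries (SD, n = 3 each), with overlapping groups and a log2 fold change of 0.00 ± 0.08 SE.

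**Figure D4:**
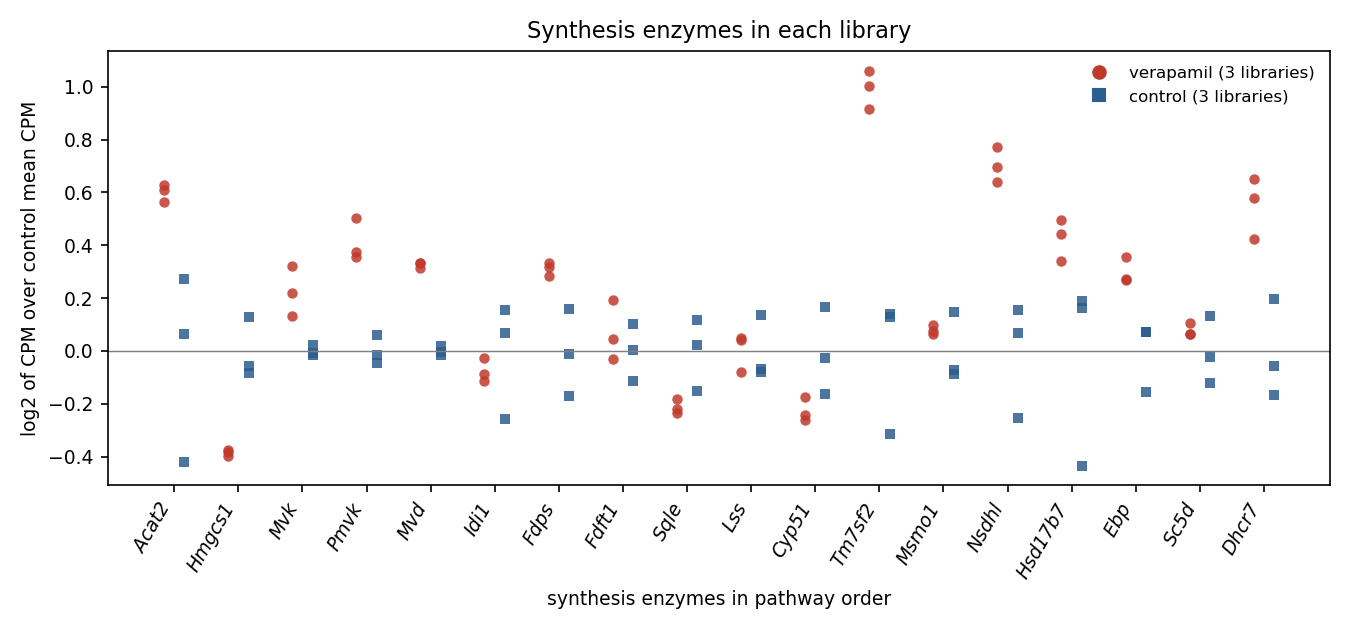
Log2 of CPM over the control mean for 18 synthesis enzymes in pathway order, with 3 verapamil libraries as circles and 3 control libraries as squares. Tm7sf2, Nsdhl, Acat2 and Dhcr7 lie highest with verapamil and Hmgcs1 lowest; the lowest control square of Acat2, Tm7sf2, Nsdhl and Hsd17b7 is control replicate 2.

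After lanosterol, several of the enzymes that trim and rearrange the sterol rose. Tm7sf2, a sterol C14 reductase (Entrez 73166, chromosome 19, 6062821 to 6067850), was at 11.2, 10.1 and 10.8 CPM with verapamil, against 5.87, 4.33 and 5.93 CPM in control libraries. It rose by 0.99 ± 0.13 SE (edgeR adjusted p = 0.00144), a 1.98-fold difference and the largest among the 32 members with all libraries. Without control replicate 2 it rose by 0.85, less than Apoe at 0.89. Per kilobase it was the least abundant synthesis enzyme in both groups, at 7.15 CPM per kb with verapamil and 3.59 in control libraries. Nsdhl, which removes the carboxyl group at C4, was at 51.7, 54.4 and 49.6 CPM with verapamil, against 33.4, 26.7 and 35.5 CPM in control libraries (0.70 ± 0.10 SE, edgeR adjusted p = 0.00194), and its rise was 0.59 without control replicate 2. Dhcr7, the final reductase of the Kandutsch-Russell route, was at 31.0, 32.6 and 27.9 CPM with verapamil, against 20.0, 18.5 and 23.8 CPM in control libraries (0.55 ± 0.11 SE, edgeR adjusted p = 0.00591). These 3 genes had no overlap between groups.

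Ebp, the sterol isomerase, averaged 66.2 ± 2.25 CPM with verapamil and 53.8 ± 4.75 CPM in control libraries (SD, n = 3 each), a rise of 0.30 ± 0.07 SE (edgeR adjusted p = 0.0174). That call was lost without any of the verapamil replicates (edgeR adjusted p = 0.0584 to 0.0772). Hsd17b7, a ketoreductase of the same complex as Nsdhl, was at 103, 106 and 95.4 CPM with verapamil, against 84.4, 55.8 and 86.0 CPM in control libraries. Its groups were apart, but it did not pass (0.43 ± 0.16 SE, edgeR adjusted p = 0.0788). Without control replicate 2 it passed at a smaller difference, 0.25 (edgeR adjusted p = 0.00702). Msmo1, the C4 methyl oxidase, averaged 106 ± 1.35 CPM with verapamil and 100.6 ± 9.38 CPM in control libraries, and Sc5d, the C5 desaturase, 93.0 ± 1.48 CPM with verapamil and 88.1 ± 7.84 CPM in control libraries (SD, n = 3 each). Their log2 fold changes were 0.08 each (edgeR adjusted p = 0.429 and 0.433), and without control replicate 2 they were 0.04 for Msmo1 and 0.02 for Sc5d.

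Ratios within a library do not depend on how libraries are scaled. Abca1 had 1.27, 1.48 and 1.33 estimated counts for each count of Hmgcs1 with verapamil, against 0.588, 0.593 and 0.642 in control libraries. The mean ratio was 2.24-fold higher with verapamil. Tm7sf2 stood at 6.44%, 5.81% and 6.26% of the Hmgcs1 count with verapamil, against 2.37%, 2.02% and 2.72% in control libraries. Neither ratio overlapped between groups. Both pairs were picked from the ends of the range, so the ratios are descriptions without a test.

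Of the 5 genes of the SREBP system 1 rose, 1 fell and 3 did not pass, 40.0% called against 31.7% of all genes, with a median log2 fold change of 0.06. Srebf1, whose protein mainly serves fatty acid genes and which LXR also switches on, was at 102, 101 and 98.96 CPM with verapamil, against 83.8, 84.3 and 86.0 CPM in control libraries. It rose by 0.25 ± 0.05 SE (edgeR adjusted p = 0.00671), and its annotation overlaps that of Rai1, which fell by 0.46, by 114 bases. Srebf2, encoding the main driver of cholesterol synthesis, was at 123, 123 and 125 CPM with verapamil, against 121, 121 and 122 CPM in control libraries. Its log2 fold change was 0.03 ± 0.05 SE (edgeR adjusted p = 0.694). Scap averaged 68.2 ± 2.69 CPM with verapamil and 65.5 ± 2.78 CPM in control libraries (SD, n = 3 each; 0.06 ± 0.06 SE, edgeR adjusted p = 0.479).

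The pair of Insig genes differed. Insig2, which holds Scap in the endoplasmic reticulum (Entrez 72999, chromosome 1, 121304353 to 121332662), was at 59.3, 62.1 and 59.7 CPM with verapamil, against 77.0, 73.9 and 73.7 CPM in control libraries. It fell by 0.31 ± 0.05 SE on the log2 scale (edgeR adjusted p = 0.00381) and kept its call in all 14 alternatives. Insig1, a SREBP target with the same task, was at 128, 127 and 123 CPM with verapamil, against 129, 105 and 118 CPM in control libraries, and its groups overlapped (0.10 ± 0.08 SE, edgeR adjusted p = 0.346). Its log2 fold change was 0.02 without control replicate 2. The ratio of Insig2 to Insig1 counts was 0.464, 0.491 and 0.484 with verapamil, against 0.597, 0.703 and 0.625 in control libraries. Per kilobase, Insig1 had 46.7 CPM per kb with verapamil and 43.5 in control libraries, and Insig2 had 22.4 and 27.8 CPM per kb.

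Other genes of sterol handling were taken from 3 lists. For lipoprotein uptake and intracellular sterol transport, 7 of 15 rose, 1 fell and 7 did not pass, 53.3% called against 31.7% of all genes, with a median of 0.11. Lipa, the lysosomal acid lipase that frees cholesterol from its esters, was at 338, 375 and 328 CPM with verapamil, against 156, 128 and 173 CPM in control libraries (1.18 ± 0.11 SE, edgeR adjusted p = 3.85e-04). Gramd1b, which carries cholesterol from the plasma membrane to the endoplasmic reticulum, rose by 0.62. Lrp8, a receptor for apolipoprotein E, rose by 0.58, a call lost without verapamil replicate 1 (edgeR adjusted p = 0.0528).

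Vldlr, a receptor for triglyceride-rich lipoproteins and a known hypoxia target, went the other way. It was at 24.7, 24.0 and 28.4 CPM with verapamil, against 66.5, 108 and 39.2 CPM in control libraries (-1.47 ± 0.35 SE, edgeR adjusted p = 0.0220). The order of its control libraries, replicate 2 highest and replicate 3 lowest, was that of the summed hypoxia response genes given above, and the part of hypoxia in its fall was not tested. Its call was lost without any of the verapamil replicates and without the filter on low counts, and without control replicate 2 it fell by 1.04. Of the 12 hypoxia genes 10 fell and 2 did not pass, 83.3% called against 31.7% of all genes. All 12 had log2 fold changes below 0, with a median of -1.38.

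Of 14 tested LXR targets, partners and oxysterol enzymes outside the members, 5 rose, 1 fell and 8 did not pass, 42.9% called against 31.7% of all genes, with a median of 0.20. Cd5l, a macrophage-secreted LXR target, was at 36.2, 31.4 and 44.2 CPM with verapamil, against 11.5, 13.3 and 9.28 CPM in control libraries (1.72 ± 0.16 SE, edgeR adjusted p = 5.51e-04). The apolipoprotein gene Apoc2 rose by 0.91, the phosphodiesterase gene Smpdl3a by 0.83 and the fatty acid desaturase gene Scd1 by 0.89, the last not without verapamil replicate 2 (edgeR adjusted p = 0.0614). Scd1 rose by 0.68 without control replicate 2. Ch25h, which makes the LXR ligand 25-hydroxycholesterol, was named after its value was seen and lay below the 5 CPM set for naming. It was at 2.18, 2.30 and 2.20 CPM with verapamil, against 4.51, 3.85 and 2.94 CPM in control libraries. It fell by 0.75 (edgeR adjusted p = 0.0185). The macrophage marker median of 0.47 belongs beside these values, and the part of macrophages in them was not tested.

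In the branches that use farnesyl pyrophosphate for isoprenoids, 1 of 9 genes rose, 1 fell and 7 did not pass, 22.2% called against 31.7% of all genes, with a median of -0.06. Fnta, the α subunit of the enzymes that attach farnesyl and geranylgeranyl groups to proteins, rose by 0.21, and Pggt1b, a β subunit of geranylgeranyl transferase, fell by 0.22. The call was lost in 4 of the 14 alternatives for Fnta and in 5 for Pggt1b.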

How the data were processed

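The authors deposited estimated counts of reads for each gene in each library, per the file headers, with no scaling to depth or gene length; 67.7% of the values were not whole. The build was GRCm38 (mm10), per the submitters' processing notes. Which aligner, counter, annotation and strand setting were used is not given in these sources. Annotations of 8 members overlap another gene, 5 of them a gene in the table, and such reads cannot be told apart.

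Values were rounded to whole numbers for the fit. Genes were filtered with filterByExpr (minimum count 10, minimum total 15), which kept 13366 of 17491. TMM scaling and the robust quasi-likelihood test of edgeR 4.0.16 in R 4.3.3 were fitted to the whole table, checked on simulated data. SE was computed by dividing the size of the log2 fold change by √F. Log2 CPM used a prior count of 2. Length is that of the longest GENCODE M21 protein-coding transcript. No replicate pair was within sampling noise (chi-square per degree of freedom 3.49 to 47.8). Alternatives included DESeq2 1.42.0 and limma 3.58.1.

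The members and lists were chosen with earlier results of these data known. All members are named; from the other sterol lists, up to 4 called genes with the largest change and a mean of at least 5 CPM; from marker lists, the 3 with the highest mean. Other names were chosen after their values were seen. Some genes of these pathways are not analysed here.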

Additional observations from a re-analysis of the deposited data

How the results depend on the processing

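The 14 alternatives were DESeq2 size factors, upper quartile or library totals for scaling, no filter or at least 5 CPM in 3 libraries, DESeq2's or limma-voom's test, the replicate block, and each library left out. LXR and efflux genes called higher numbered 4 to 5, none was called lower, and the SREBP system had 2 calls in each. With a library left out, synthesis enzymes called higher numbered 5 to 10, those lower 1 to 3, all genes called 2236 to 5042 (4235 with all libraries), and the synthesis median minus the LXR and efflux median ran from -0.24 to -0.11. Without control replicate 2 the synthesis calls were 10 higher and 3 lower. Of all calls 48.5% were higher, and 63.7% with library totals, while 16 members rose and 2 fell under each scaling.

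The stated pairs did not show in the values. Same-numbered libraries correlated at 0.01, -0.17 and -0.13 in their deviations from group means, and no library did so best with its own number. The replicate block gave 2953 calls and 8 synthesis enzymes higher, losing Mvk (edgeR adjusted p = 0.0979). Mvk also did not pass by DESeq2 (adjusted p = 0.0997).

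Log2 fold changes near 0 changed sign; with a library left out, Idi1 ran from -0.1944 to 0.008041, Lss from -0.03897 to 0.07725, Stard4 from -0.05056 to 0.1325, Nr1h2 from -0.029 to 0.08893, Mylip from -0.04724 to 0.04189 and Mrc1 from -0.03129 to 0.041. Of these, Idi1 alone passed the test in any, without control replicate 2. Lss was at -0.002158 with DESeq2 size factors and -0.002193 by DESeq2, and Mylip at -0.004617, -0.004819 and, with the CPM filter, -0.000762. Mrc1 was at 0.01237 with upper quartile and 0.0757 with library totals, which moved the median of all genes to 0.09. Abcg1 per macrophage marker count, verapamil over control, was 0.956, and 1.195 without Lyz2, a denominator chosen after the data were seen. The cause was not tested.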
